A study of Mus musculus with 82 samples.

Results

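The genes of oxidative phosphorylation were followed in naive CD4 T cells across inbred mouse strains. They were chosen by symbol: every gene whose name begins with Ndufa, Ndufb, Ndufc, Ndufs or Ndufv (complex I, with the Ndufaf assembly factors left out), Sdha, Sdhb, Sdhc or Sdhd (complex II), Uqcr (complex III), Cox4 to Cox8 (complex IV) or Atp5 (complex V). The rule found 86 genes on 112 probe sets, out of 19752 genes on 24922 probe sets. Where a gene had several probe sets, the brightest stood for it. Complex I gave 36 genes, complex II 8, complex III 8, complex IV 17 and complex V 17. Ndufa4, now known as a subunit of complex IV, is counted by its name with complex I. A total of 73 genes code for subunits of the complexes. Another 4 (Sdhaf1, Sdhaf2, Sdhaf3 and Sdhaf4) code for assembly factors of complex II, 1 (Cox7a2l) codes for a protein that joins complexes III and IV into supercomplexes, and 8 are forms known from other tissues (Ndufa4l2, Cox4i2, Cox6a2, Cox6b2, Cox7a1, Cox7b2, Cox8b and Cox8c).

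Oxidative phosphorylation makes ATP in the inner mitochondrial membrane. Complexes I and II feed electrons from NADH and succinate into the chain, complex III passes them from ubiquinol to cytochrome c, and complex IV hands them to oxygen. Complexes I, III and IV pump protons, and complex V, the ATP synthase, uses the gradient. Most subunits are encoded in the nucleus and have to be made in step with a small core encoded in mitochondrial DNA. Naive T cells are small resting cells known to draw most of their ATP from this pathway, and they shift toward glycolysis once activated.

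Cells came from spleens of male mice kept free of specific pathogens. They were sorted as CD3+, CD4+ and CD62L+ without markers of other cells such as CD8, CD11c, CD25, CD49b, Gr1 and Ter119, and each array held RNA of a pool of 2 to 3 mice. Their age is 6 weeks in the labels and 5 weeks in the series description, which also mentions bone marrow granulocytes. The 82 Affymetrix ST1.0 arrays fell into 40 groups by strain: 129S1/SvImJ, A/J, AKR/J, BALB/cByJ, BPL/1J, BTBR T+ tf/J, C3H/HeJ, C57BL/10J, C57BL/6J, C57BLKS/J, C57L/J, CAST/EiJ, CBA/CaJ, CBA/J, CE/J, DDY/JclSidSeyFrkJ, FVB/NJ, JF1/Ms, KK.Cg-Ay/J, LGJ, LP/J, MA/MyJ, MRL/MpJ, MSM/Ms, NOD/ShiLtJ, NON/ShiLtJ, NOR/LtJ, NZB/BINJ, NZW/LacJ, P/J, PL/J, PWD/PHJ, RIIIS/J, SEA/GnJ, SJL/J, SM/J, SWR/J and WSB/EiJ, with arrays titled C57BR and DBA2. For the C57BR titles the background label reads CBA/CaJ, and for the DBA2 titles DBA/1LacJ, so these groups are called C57BR-titled and DBA2-titled here. No mouse was treated. There were 2 arrays for each of 38 groups, 5 for C57BL/6J and 1 for SWR/J.

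Array medians lay between 102.1 and 141.8 intensity units. The highest was that of C57BL/6J replicate 5, and the next was 122.8, on CAST/EiJ replicate 2. All 9 naive CD4 T cell markers measured, among them Cd3e, Cd4, Ccr7 and Il7r, were above the median of all values (113.1), and their mean was 11.69 to 12.18 (log2) on every array. PL/J replicate 2 stood apart: the mean of 10 B cell markers was 8.70 (log2) there, against a median of 5.74 over arrays, and its erythroid mean was 8.01 against 6.26. A/J replicate 2 followed, with a B cell mean of 7.39 and an erythroid mean of 7.98. PL/J replicate 2 was also the highest array for neutrophil (7.55), myeloid (7.01), CD8 T cell (8.59) and platelet markers (6.18). The medians of these lists over arrays were 5.70, 5.72, 7.80 and 5.62. C57BL/6J replicate 5 had an erythroid mean of 6.78, a myeloid mean of 6.10 (median 5.72) and a neutrophil mean of 5.97 (median 5.70). PL/J calls that are named below are given with and without replicate 2. In such sorted bulk samples, fewer cells of a type and less RNA per cell cannot be told apart. Probe sequences and the strains' sequence variants were not at hand, so whether a variant under a probe changed its signal was not tested.

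Promoters are shown for 4 members on which the results turn: Sdhd, whose level set 1 strain apart, Atp5e and Cox5b, which varied most between strains, and Atp5o, whose level followed the other members most closely. Each runs from 250 bases before to 50 bases after the transcription start, 5′ to 3′ on the gene's strand, from RefSeq on GRCm38.p6. Capitals mark perfect matches, on either strand, to the core bound by NRF1 (GCGCA, any base, then GCGC) or by GABPA and other ETS factors (CCGGAAG). NRF1, GABPA and YY1 (core AAGATGG) are textbook regulators of these genes.
Sdhd, chr9:50603800-50604099, minus strand: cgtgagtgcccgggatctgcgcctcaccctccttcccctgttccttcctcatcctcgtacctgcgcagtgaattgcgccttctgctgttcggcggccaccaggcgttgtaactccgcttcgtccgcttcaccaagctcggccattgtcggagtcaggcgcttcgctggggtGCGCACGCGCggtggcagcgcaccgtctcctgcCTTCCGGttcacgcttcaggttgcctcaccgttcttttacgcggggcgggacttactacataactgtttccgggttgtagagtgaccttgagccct
Atp5e, chr2:174464052-174464351, minus strand: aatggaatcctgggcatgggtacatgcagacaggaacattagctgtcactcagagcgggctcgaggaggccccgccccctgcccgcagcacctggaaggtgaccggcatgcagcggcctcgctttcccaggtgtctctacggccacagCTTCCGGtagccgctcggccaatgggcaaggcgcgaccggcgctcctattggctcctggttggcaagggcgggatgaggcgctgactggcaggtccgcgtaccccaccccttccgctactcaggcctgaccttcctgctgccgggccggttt
Cox5b, chr1:36691237-36691536, plus strand: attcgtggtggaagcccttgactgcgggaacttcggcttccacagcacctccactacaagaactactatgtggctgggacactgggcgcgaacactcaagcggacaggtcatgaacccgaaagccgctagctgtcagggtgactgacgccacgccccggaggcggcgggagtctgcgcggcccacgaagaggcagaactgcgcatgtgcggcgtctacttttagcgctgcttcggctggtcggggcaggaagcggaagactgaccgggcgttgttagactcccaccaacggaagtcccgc
Atp5o, chr16:91931581-91931880, minus strand: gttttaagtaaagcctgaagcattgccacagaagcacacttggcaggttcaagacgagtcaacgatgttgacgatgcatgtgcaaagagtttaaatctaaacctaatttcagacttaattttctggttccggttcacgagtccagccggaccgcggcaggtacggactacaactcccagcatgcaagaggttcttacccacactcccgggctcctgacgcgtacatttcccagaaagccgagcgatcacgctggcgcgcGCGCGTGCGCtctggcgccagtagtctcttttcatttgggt

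Sdhd held 1 match to each of the NRF1 and ETS cores, Atp5e held 1 ETS match, Atp5o held 1 NRF1 match and Cox5b held none of the 3. The RefSeq table had promoters for 71 of the 86 members, 76 in all. Of these, 25% held the NRF1 core, against 4.6% of the 32851 promoters of the table, which have the same length of 300 bases. The ETS core was in 26.3% against 8.86%, the YY1 core in 13.2% against 6.34%, and at least 1 of the 3 in 55.3% against 18%. A match is a description of the letters in this window, and whether a factor binds there was not measured.

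Most members lay above the median of all values. This held for the means of 80 of the 86 genes, which include all 73 subunits, and for 12423 of all 24922 probe sets. Of the 8 forms from other tissues, Cox4i2 (140.9), Cox6a2 (193.1) and Cox8c (139.4) were above it. The dimmest subunits, Ndufb3 (127.8), Ndufb2 (135.7) and Ndufa1 (138.9), were no brighter than these forms. A mean above the median is therefore not by itself a sign of expression. Cox7b2 had a mean intensity of 22.7, Ndufa4l2 of 72.0 and Cox7a1 of 72.8, all below the median.

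Most members differed between strains. The moderated F-test of limma, which asks whether any of the 40 strain means differ beyond the spread between arrays of a strain, passed at an adjusted p of 0.05 for 69 of 86 members (80.2%). The share over all probe sets was 47.6%. Brighter probe sets passed more often, and among those above the median of all values the shares were 86.2% (69 of 80) for the members and 77.1% for all probe sets. Read against that background, the members' share was higher by 9.2 percentage points. Brightness was not matched beyond this cut, and each member stood by its brightest probe set, so the excess is not read as a trait of the set.

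By role, 65 of 73 subunits passed the F-test, 3 of 4 assembly factors, Cox7a2l, and 0 of the 8 forms from other tissues, of which 0 also passed at an unadjusted p under 0.05 (limma). By complex, 28 of 36 genes passed for complex I, 7 of 8 for complex II, 8 of 8 for complex III, 10 of 17 for complex IV and 16 of 17 for complex V. All 10 calls of complex IV lay among its 13 brighter genes. The 8 subunits that did not pass were Ndufa12, Ndufa7, Ndufab1, Ndufb2, Ndufb3, Ndufs1, Ndufv2 and Atp5pb.

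The size of the variation was moderate. The SD of strain means had a median of 0.18 (log2) over the 86 members, from 0.08 to 0.43, against 0.14 over all probe sets. For the brighter ones it was 0.19 for members and 0.17 for all. The replicate SD of the members, pooled within strains, had a median of 0.16. The intraclass correlation, the share of a gene's variance that lies between strains, had a median of 0.458 for the brighter members and 0.468 for all brighter probe sets. In 27 members the highest strain mean was at least 2 times the lowest, and among the brighter ones this was the case for 32.5% of members and 26.6% of probe sets. Complex III had the highest median SD (0.23) and complex IV the lowest (0.14). The complex IV value takes in Cox4i2, Cox6a2, Cox6b2, Cox7a1, Cox7b2, Cox8b and Cox8c, forms from other tissues with SDs of 0.08 to 0.14. Its other genes ran from 0.13 (Cox6c) to 0.43 (Cox5b), so this median does not rank its common subunits.

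**Figure D1:**
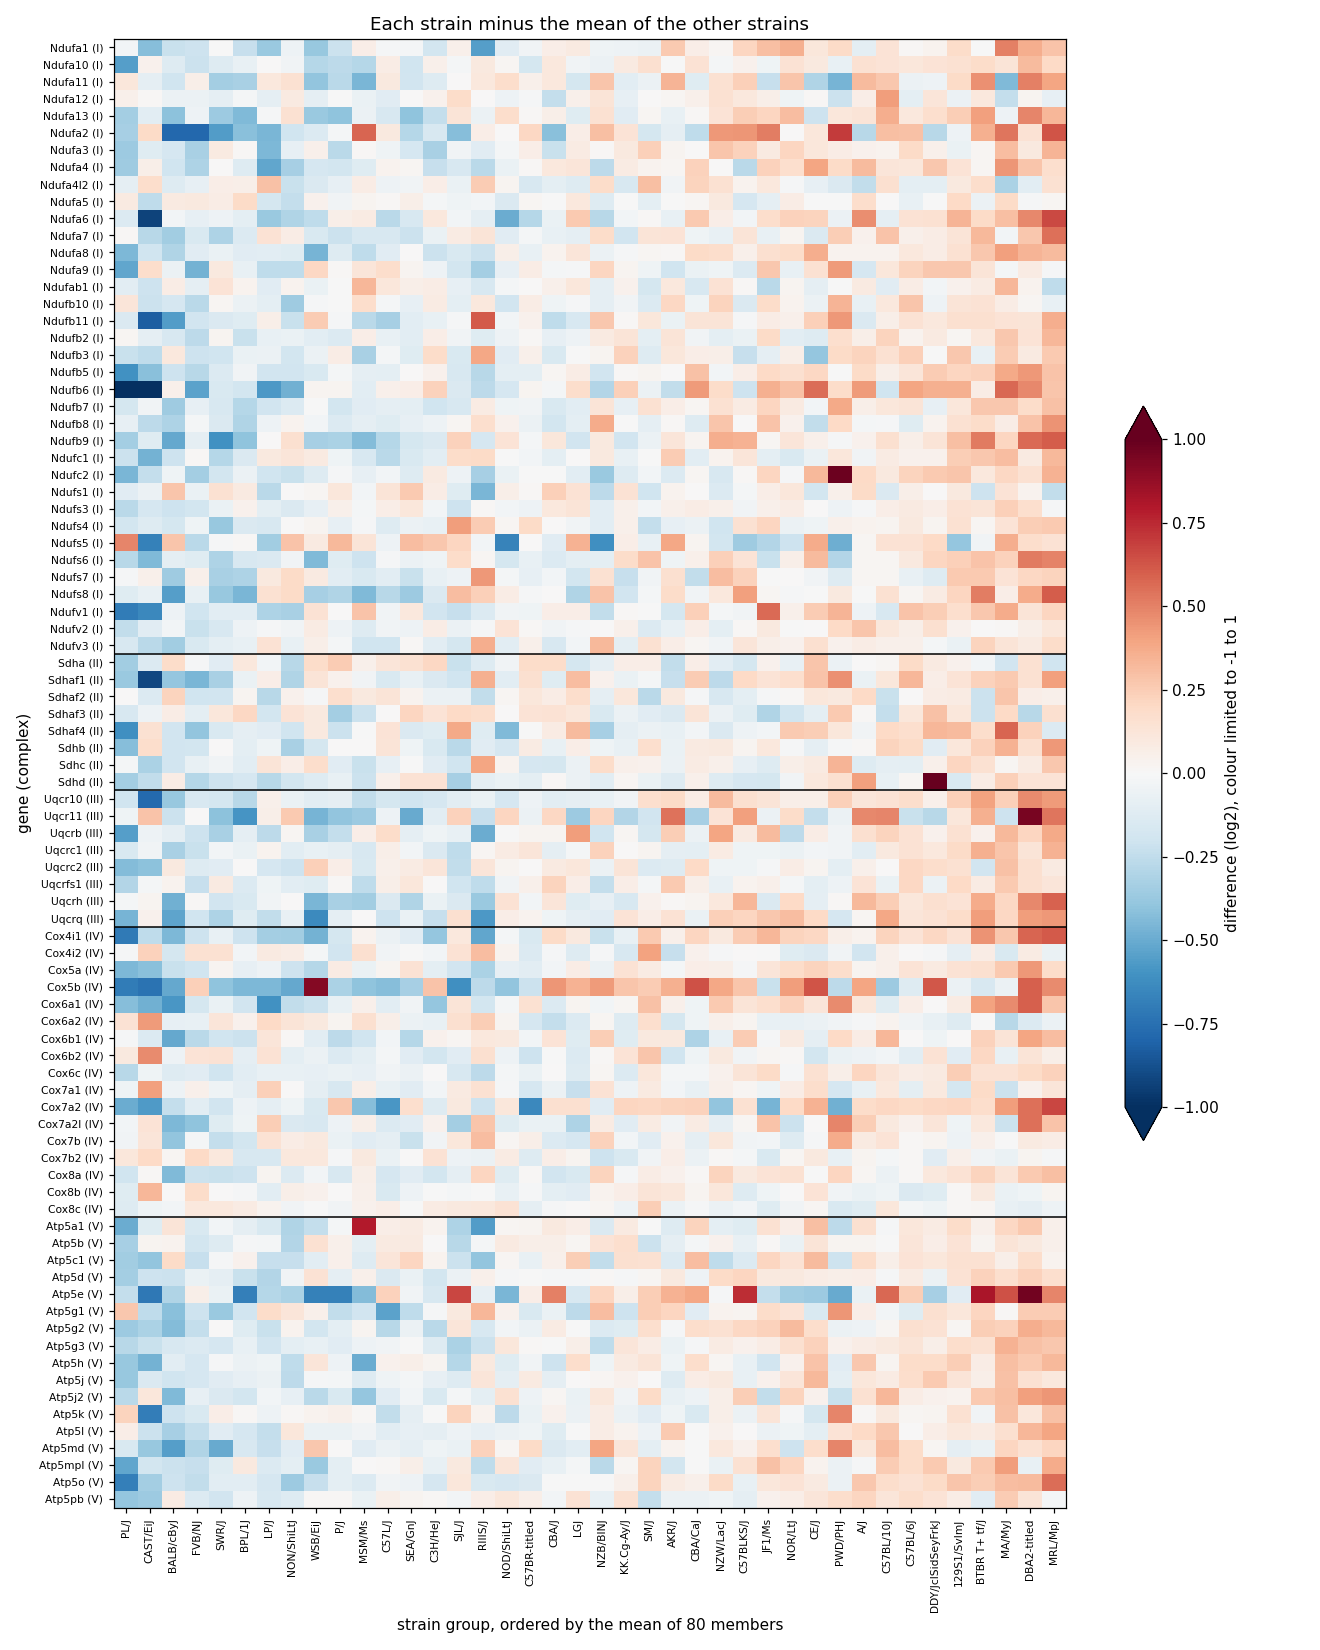
Difference (log2, colour limited to -1 to 1) between each of the 40 strain groups (columns, ordered by the mean of 80 members) and the mean of the other strains, for the 86 members (rows, grouped by complex). Blue fills the columns of PL/J, CAST/EiJ and BALB/cByJ on the left and red those of MRL/MpJ, DBA2-titled and MA/MyJ on the right, while Cox5b, Atp5e, Ndufa2 and the single DDY/JclSidSeyFrkJ cell of Sdhd stand out as rows or cells of their own.

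Sdhd, the small membrane anchor of complex II, gave the largest difference of any strain and member. Its intensity was 1648 and 1750 on the DDY/JclSidSeyFrkJ arrays and 333.1 to 709.9 on the 80 arrays of the other strains. The groups did not overlap, and the next highest strain mean was 573.3, in A/J, whose arrays read 463.1 and, on replicate 2, 709.9. DDY/JclSidSeyFrkJ was higher than the mean of the other strains by 2.01 ± 0.11 (log2 difference ± SE, limma, adjusted p = 1.94e-20, n = 2 arrays). Only 2 of the 86 members were called higher in this strain (2.33%), against 2.08% of all probe sets, and the other was Cox5b. The other subunits of complex II, Sdha, Sdhb and Sdhc, were not called there.

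Cox5b, a nuclear-encoded subunit of complex IV, separated the strains into a low and a high set. Strain means ran from 803.2 in CAST/EiJ (arrays 791.5 and 815.2) to 2464 in WSB/EiJ (arrays 2372 and 2560). A total of 22 strains had means of at most 1271 and 18 had means of at least 1556, and no array of the first set was above 1365 or of the second below 1436. The gap between the sets was 0.29 (log2), about the size of 2 replicate SDs of 0.14, and where it lies was seen in these data, so it is a description. The F-test passed with an adjusted p of 2.13e-17 (limma), and its intraclass correlation was 0.899. Against the mean of the other strains Cox5b was called in 23 strains, higher in 12 and lower in 11, more than any other member. Its second probe set correlated with the first at r = 0.99 over the 40 strain means.

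Strains known to be related did not always share a side of the Cox5b gap, as a look at the values after the fact showed. C57BL/6J lay in the low set with 1349, 1229, 1185, 1154 and 1165, and C57BLKS/J in the high set with 1562 and 1628. NOD/ShiLtJ read 1103 and 928.7, and NOR/LtJ, which derives in large part from it, read 1733 and 1779. The high set held FVB/NJ, SM/J, C57BLKS/J, KK.Cg-Ay/J, C3H/HeJ, LGJ, AKR/J, NZW/LacJ, A/J, NOR/LtJ, NZB/BINJ, CBA/J, MRL/MpJ, DBA2-titled, DDY/JclSidSeyFrkJ, CE/J, CBA/CaJ and WSB/EiJ.

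Atp5e, the epsilon subunit in the central stalk of the ATP synthase, varied as widely as Cox5b (SD of strain means 0.43) but without such a gap. Its strain means ran from 274.6 in CAST/EiJ (arrays 255.8 and 294.8) to 855.4 in DBA2-titled (arrays 864.3 and 846.7), with a median of 426.2. The F-test gave an adjusted p of 1.21e-11 (limma). It was called higher in 8 strains and lower in 6. DBA2-titled was 0.97 ± 0.14 higher than the mean of the other strains (limma, adjusted p = 2.78e-06). C57BLKS/J was 0.74 ± 0.14 higher (limma, adjusted p = 0.000393), with arrays of 644.2 and 837.2. BPL/1J was lower, at -0.68 ± 0.14 (limma, adjusted p = 0.00104), with arrays of 309.7 and 254.0. With 1 array left, the differences were 0.55 without C57BLKS/J replicate 2 and -0.54 without BPL/1J replicate 2, and neither was called. BTBR T+ tf/J was 0.82 ± 0.14 higher (limma, adjusted p = 4.42e-05), though its arrays read 631.9 and 949.8 and the call was lost without replicate 2 (adjusted p = 0.413).

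Cox7a2, another complex IV subunit, had 8 low strains. Means there were 277.5 to 328.6, in C57BR-titled, C57L/J, CAST/EiJ, PL/J, PWD/PHJ, JF1/Ms, MSM/Ms and NZW/LacJ, and 365.7 to 674.9 in the other 32. The C57BR-titled arrays read 286.1 and 269.2 and those of C57L/J 280.5 and 298.3, whereas the 5 C57BL/6J arrays lay between 451.3 and 540.5. MRL/MpJ was highest, with 592.8 and 768.4. PL/J replicate 1 alone read 330.4, still below the other 32. The array ranges of the low and high strains overlapped slightly, with a highest array of 363.0 in the former and a lowest of 356.8 in the latter. The F-test gave an adjusted p of 3.82e-11 (limma).

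**Figure D2:**
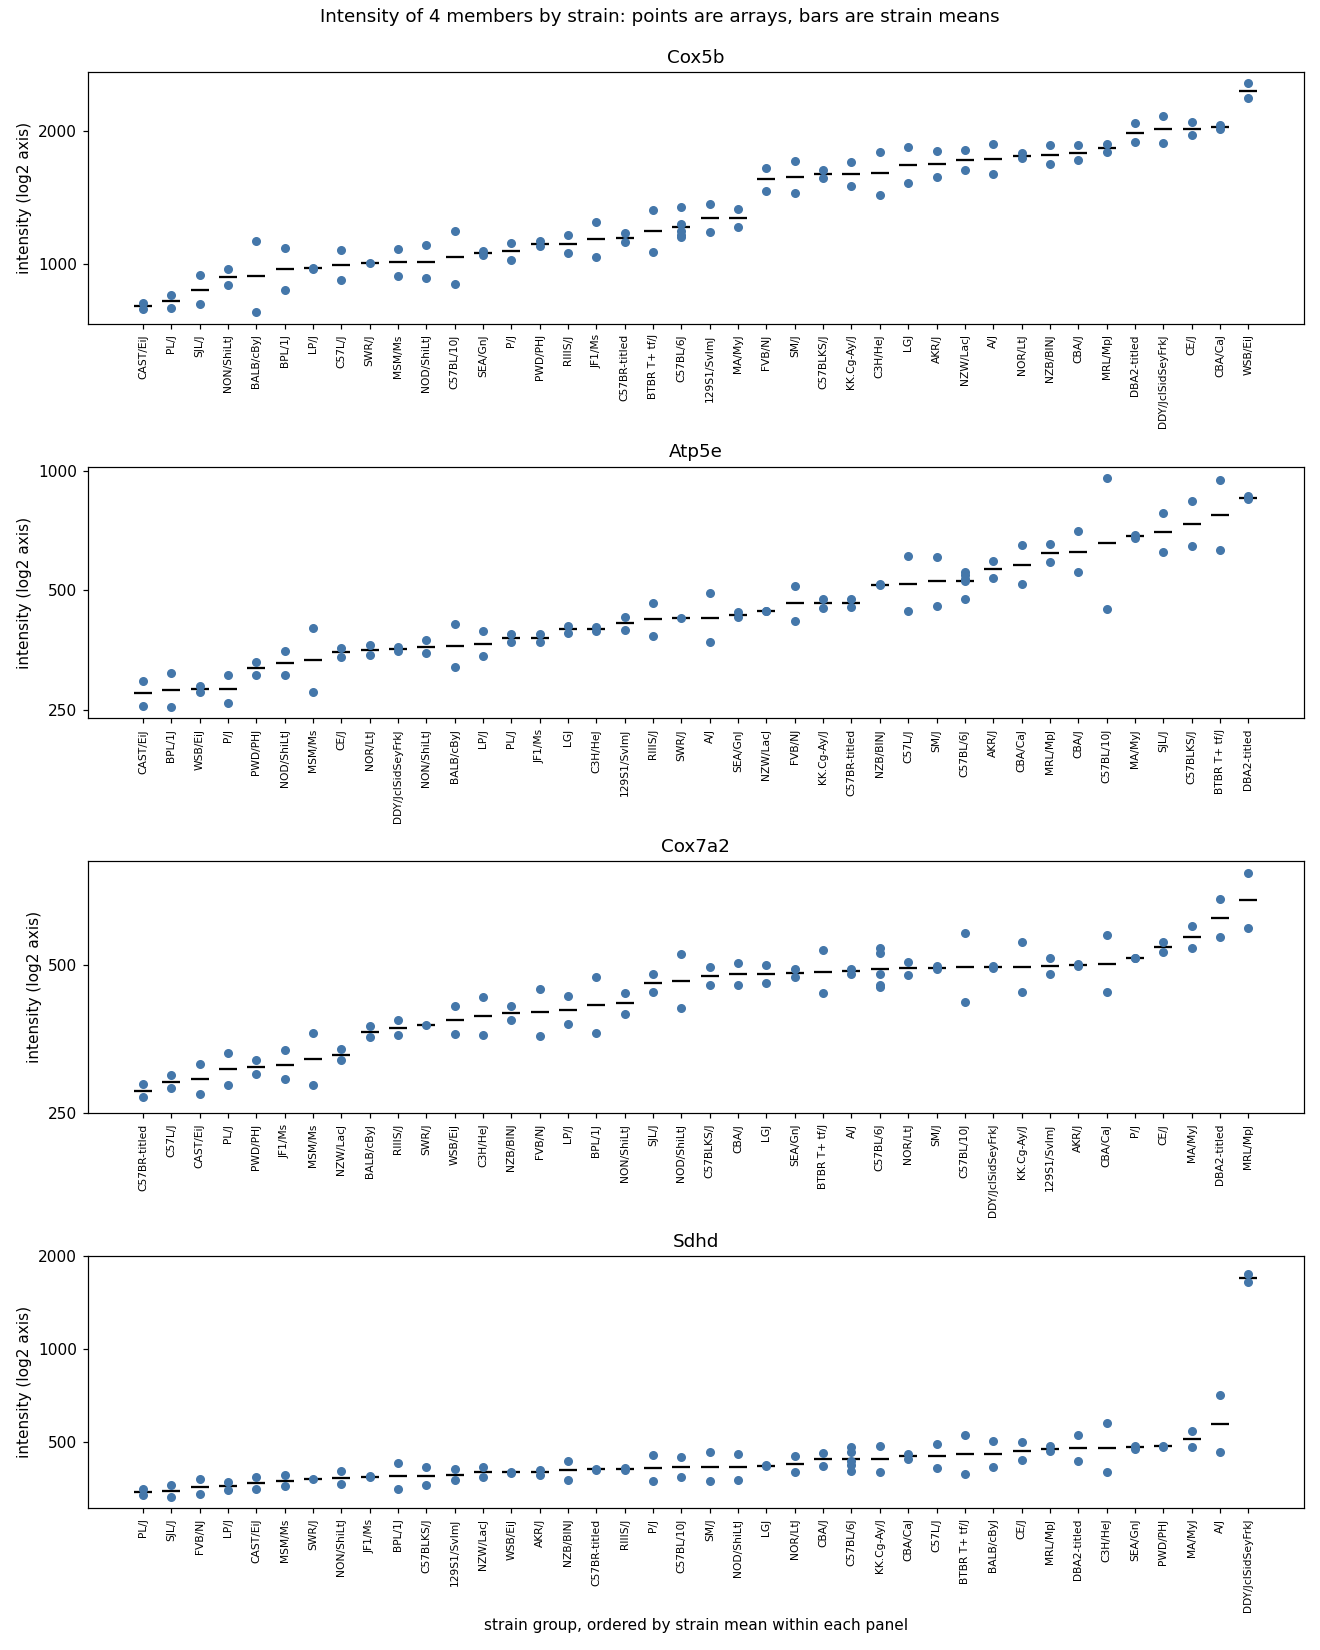
Intensity (log2-spaced axis) of Cox5b, Atp5e, Cox7a2 and Sdhd on each array (points) with strain means (bars), strains ordered by mean within each panel. Cox5b steps up between 1271 and 1556, Atp5e and Cox7a2 climb over their whole range, and Sdhd lies between 345.4 and 573.3 except for DDY/JclSidSeyFrkJ at 1698.

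Complex I gave 5 of the 12 members with the largest SD, all accessory subunits. Ndufb6, in the membrane arm, ran from 308.6 in PL/J to 994.0 in MA/MyJ, and Ndufa2, in the matrix arm, from 342.3 in BALB/cByJ to 935.4 in PWD/PHJ. PL/J and CAST/EiJ were the low strains of Ndufb6, with arrays of 403.1 and 236.2 in the former and 273.7 and 402.9 in the latter. The difference from the mean of the other strains was -1.15 ± 0.21 in PL/J (limma, adjusted p = 5.38e-05) and -1.04 ± 0.21 in CAST/EiJ (limma, adjusted p = 0.000181). Each call was lost when the strain was left with 1 array, without PL/J replicate 2 (adjusted p = 0.115) or without CAST/EiJ replicate 2 (adjusted p = 0.124).

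Ndufa2 was lowest in BALB/cByJ (388.0 and 302.0) and FVB/NJ (448.6 and 261.7), and highest in PWD/PHJ (1089 and 803.2). All 3 differences from the mean of the other strains passed, at -0.78 ± 0.14, -0.78 ± 0.14 and 0.70 ± 0.14 (limma, adjusted p = 5.64e-05, 5.11e-05 and 7.67e-05). Those of FVB/NJ and PWD/PHJ were lost without FVB/NJ replicate 2 (adjusted p = 0.606) or PWD/PHJ replicate 1 (adjusted p = 0.126).

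Ndufs5, a small subunit of the complex I intermembrane face, went against the set in PL/J. There it read 274.7 and 238.5, the highest strain mean (255.9), where 37 other members were called lower. Without replicate 2 it was still called higher there (limma, 0.59 ± 0.17, adjusted p = 0.0225). It was lowest in CAST/EiJ (135.3 and 100.1), NOD/ShiLtJ (122.8 and 111.8) and NZB/BINJ (142.1 and 103.8). Ndufb9 ran from 473.6 in SWR/J, a single array, to 1073 in MRL/MpJ. Ndufa6 ran from 294.8 in CAST/EiJ to 860.7 in MRL/MpJ, and its F-test was borderline (limma, adjusted p = 0.0439, from 0.00421 to 0.148 when single arrays were left out).

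The other members of the 12 were Uqcr11, Cox4i1 and Sdhaf1. Uqcr11, a small complex III subunit, was highest in DBA2-titled (901.8 and 855.1), by 0.95 ± 0.20 over the mean of the other strains (limma, adjusted p = 0.000729, and 0.0809 without replicate 1). Cox4i1, the common form of a regulatory subunit of complex IV, ran from 393.5 in PL/J (446.8 on replicate 1 alone) to 962.4 in MRL/MpJ. Sdhaf1, which helps insert iron-sulfur clusters into complex II, was lowest in CAST/EiJ (196.6 and 216.3), with a difference of -0.91 ± 0.13 (limma, adjusted p = 4.80e-07), and no other strain had an array below 252.1.

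At the other end were Ndufv2, Ndufs3, Atp5b and Cox6c, the brighter members with the smallest SDs. Ndufs3 and Ndufv2 are core subunits of complex I and Atp5b is the catalytic beta subunit of the ATP synthase. Their highest strain means were 1.40 to 1.43 times their lowest, and PL/J was lowest in all 4. Without PL/J replicate 2 it remained lowest for Ndufv2 and Ndufs3, while NON/ShiLtJ was lowest for Atp5b (3366) and RIIIS/J for Cox6c (2682), and the ratios were 1.36 to 1.42. Ndufv2 did not pass the F-test (limma, adjusted p = 0.254). Atp5b did (limma, adjusted p = 0.000133), with strain means from 3278 to 4592 and a replicate SD of 0.08. Cox6c was borderline (limma, adjusted p = 0.0463, from 0.0107 to 0.0886 when single arrays were left out).

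Some members had 1 strain with arrays above all others, though this was not their only call. Ndufc2, in the membrane arm of complex I, read 3130 and 2826 in PWD/PHJ and at most 2343 elsewhere, a difference of 0.98 ± 0.15 (limma, adjusted p = 7.07e-07). Atp5a1, the alpha subunit of the ATP synthase, read 2837 and 3411 in MSM/Ms and at most 2389 elsewhere, a difference of 0.79 ± 0.11 (limma, adjusted p = 1.55e-07). Both pairs of arrays lay above every other array. Ndufc2 was also called lower in 1 strain and Atp5a1 in 2, and both PWD/PHJ and MSM/Ms had other members called.

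Cox7a2l is a gene of which C57BL/6J is known to carry a shortened protein form. Its mRNA read 786.9, 629.9, 637.9, 669.7 and 440.2 in C57BL/6J, which lay 0.05 ± 0.10 above the mean of the other strains (limma, adjusted p = 0.869). It was called higher in DBA2-titled (948.5 and 812.1) and PWD/PHJ (916.9 and 766.0). Its probe sets correlated at only r = 0.64 over strain means. Over the 18 members with several probe sets, 22 of 26 further probe sets correlated with the first at r of at least 0.9, and the lowest was -0.19, for the dim Sdhaf4. Only Atp5l had probe sets on both sides of the F-test threshold, with adjusted p from 0.0152 to 0.181 (limma) over 6.

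Whole strains stood apart as well as single genes. With each strain set against the mean of the other 39, 291 of the 3440 strain and member pairs were called (141 higher, 150 lower). The shares were 4.1% higher and 4.36% lower, against 3.25% and 3.14% of all pairs of strains and probe sets. Of the called pairs, 91 differed by at least 0.5 (log2). A total of 79 members were called in at least 1 strain. Here "called" means an adjusted p under 0.05 over all probe sets within that contrast. The 40 contrasts share arrays and are not independent of each other.

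MRL/MpJ had the most members called higher, 29 of 86 (33.7%), against 5.32% of all probe sets. They included 12 of complex I, 2 of complex II, 5 of complex III, 4 of complex IV and 6 of complex V. The cytochrome c oxidase subunit Cox7a2 was higher by 0.67 ± 0.11 (limma, adjusted p = 1.02e-05). Uqcrh, the hinge protein of complex III, read 1892 and 2122 (0.59 ± 0.13, limma, adjusted p = 0.00176). Ndufs8, which carries iron-sulfur clusters in complex I, read 1554 and 1647 (0.61 ± 0.15, limma, adjusted p = 0.00418). The median of the 80 brighter members was 0.28 above the mean of the other strains, where that of all brighter probe sets was -0.03. Without MRL/MpJ replicate 2, which leaves 1 array, the count was 0 (limma), and 21 members were higher at an unadjusted p under 0.05, against 46 with both arrays.

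DBA2-titled followed with 21 members higher (24.4%), against 5.77% of all probe sets. Its calls included Atp5e and Uqcr11 (above) and Cox6a1, Cox4i1 and Cox5b of complex IV, of which it held 6. The median of the brighter members was 0.19, against 0.02 for probe sets. Without replicate 1 the count was 2.

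MA/MyJ had 14 members higher (16.3%), against 4.73% of all probe sets, and 1 lower (Ndufa11, -0.44 ± 0.11, limma, adjusted p = 0.00666). Its brighter members had a median of 0.22 where brighter probe sets had 0.09. With arrays quantile normalized only 1 member was called, and without replicate 1 or replicate 2 the counts were 0 and 1 (limma), where 15 members were higher at an unadjusted p under 0.05 without replicate 1. PWD/PHJ also had 14 higher, against a background of 10.4%, and 4 lower, against 5.71%, and without replicate 1 it had 2 higher.

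BTBR T+ tf/J had 10 members higher (11.6%), against 5.46% of probe sets, with counts of 18 without replicate 1, 0 without replicate 2 (limma, 2 at an unadjusted p under 0.05) and 3 after median centring. C57BL/6J, with 5 arrays, had 9 higher (10.5%), against 7.92%. The largest of these was Sdhaf1, at 0.33 ± 0.09 (limma, adjusted p = 0.00648). That count is near its background and moved with nearly every choice: it was 1 after median centring or with the replicate number as a block, 2 after quantile normalization, 14 with the dimmest 40% of probe sets left out, 3 or 5 without single arrays of its own (replicates 1, 2 or 3) and 15 without MSM/Ms replicate 2.

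PL/J had the most members called lower, 37 of 86 (43%), against 12.7% of all probe sets. They made up 11 of the 17 genes of complex V, 11 of 36 of complex I, 6 of complex IV, 5 of 8 of complex II and 4 of 8 of complex III. Cox5b read 797.1 and 853.2 in PL/J (-0.70 ± 0.10, limma, adjusted p = 7.59e-07). Ndufa10, an accessory complex I subunit, read 791.2 and 700.7 (-0.55 ± 0.08, limma, adjusted p = 2.28e-07). Sdha and Sdhb, the catalytic subunits of complex II, differed by -0.35 and -0.42 (limma, adjusted p = 0.00173 and 0.00286). Without replicate 2, Sdha was not called (limma, -0.22, adjusted p = 0.313) and Sdhb was at the edge (limma, -0.48, adjusted p = 0.0473).

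Of the 2 PL/J arrays, replicate 2 carried other cells' markers. Leaving it out also leaves 1 array, a step that lowered the counts of other strains as well. Whether the other cells or the loss of an array lowered the PL/J counts was not tested. PL/J replicate 2 had a B cell marker mean of 8.70 and replicate 1 of 5.88, close to the median of 5.74. Without replicate 2 (with or without A/J replicate 2) the number of members called lower was 3, and with the B cell mean as a covariate it was 5. After quantile normalization it was 23. The brighter members had a median of -0.26, where brighter probe sets had -0.11. The 3 called without replicate 2 were Cox5b (-0.75), Ndufa10 (-0.47) and Sdhb (limma, adjusted p = 0.000332, 0.00277 and 0.0473), whereas Ndufb6, Cox4i1, Ndufv1 and Atp5o were not (limma, adjusted p = 0.115, 0.162, 0.0604 and 0.154).

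CAST/EiJ had 25 members lower (29.1%), against 9.99% of all probe sets. Ndufb11, needed for the membrane arm of complex I, was lower, with a difference of -0.82 ± 0.11 (limma, adjusted p = 1.36e-07), and its arrays read 825.8 and 887.2 where no other array was below 992.6. Uqcr10, a small complex III subunit, read 198.4 and 233.2, below every other array (at least 263.6), a difference of -0.78 ± 0.12 (limma, adjusted p = 1.65e-06). Atp5k, the e subunit of the ATP synthase, lay at 154.0 to 163.1 against at least 184.7 elsewhere (-0.69 ± 0.12, limma, adjusted p = 6.39e-06). The count was 9 without replicate 2 and 15 without replicate 3, each leaving 1 array. Markers of other cells also stood apart in CAST/EiJ: the mean of 7 NK cell markers was 5.93 and 5.94 (log2) on its arrays, against 5.33 over all arrays, that of 9 myeloid markers was 6.36 on both, against 5.72, and that of 2 CD8 T cell markers was 7.08 and 7.19, against 7.80. Of these lists, 1 of the 7 NK cell markers and 0 of the 9 myeloid markers had a mean over all arrays above the median of all values. Their part in the result was not tested.

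The 4 members called higher in CAST/EiJ (4.65%, against 7.75% of all probe sets) were all forms from other tissues: Cox6b2, Cox6a2, Cox7a1 and Cox8b. Cox6b2, known from testis, read 112.4 and 103.3, and Cox6a2, known from heart and muscle, read 289.2 and 230.7. Probe sets below the median of all values had a median difference of 0.13 in this strain. Cox6b2, Cox7a1 and Cox8b are below that median over all arrays and lay 0.33 to 0.47 above the mean of the other strains, and Cox6a2, which is above it, lay 0.43 above. The count was 2 after median centring, 1 without replicate 3, and 0 without replicate 2 (limma, 2 at an unadjusted p under 0.05).

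BALB/cByJ had 20 members lower (23.3%), against 4.02% of all probe sets. They were spread over complex I (7), complex III (4), complex IV (5) and complex V (4), with none of complex II. The brighter members had a median of -0.20, where brighter probe sets had 0.00. The count was 9 after median centring, 10 without replicate 1 and 3 without replicate 2. MSM/Ms had 10 lower (11.6%, against 6.74%), RIIIS/J 9 (10.5%, against 5.77%) and WSB/EiJ 8 (9.3%, against 3.68%), and each count was 0 (limma) without 1 array: MSM/Ms replicate 1, RIIIS/J replicate 2 or WSB/EiJ replicate 2, where 3, 2 and 8 members were lower at an unadjusted p under 0.05. For WSB/EiJ it was 4 without replicate 1 and 3 after median centring.

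**Figure D3:**
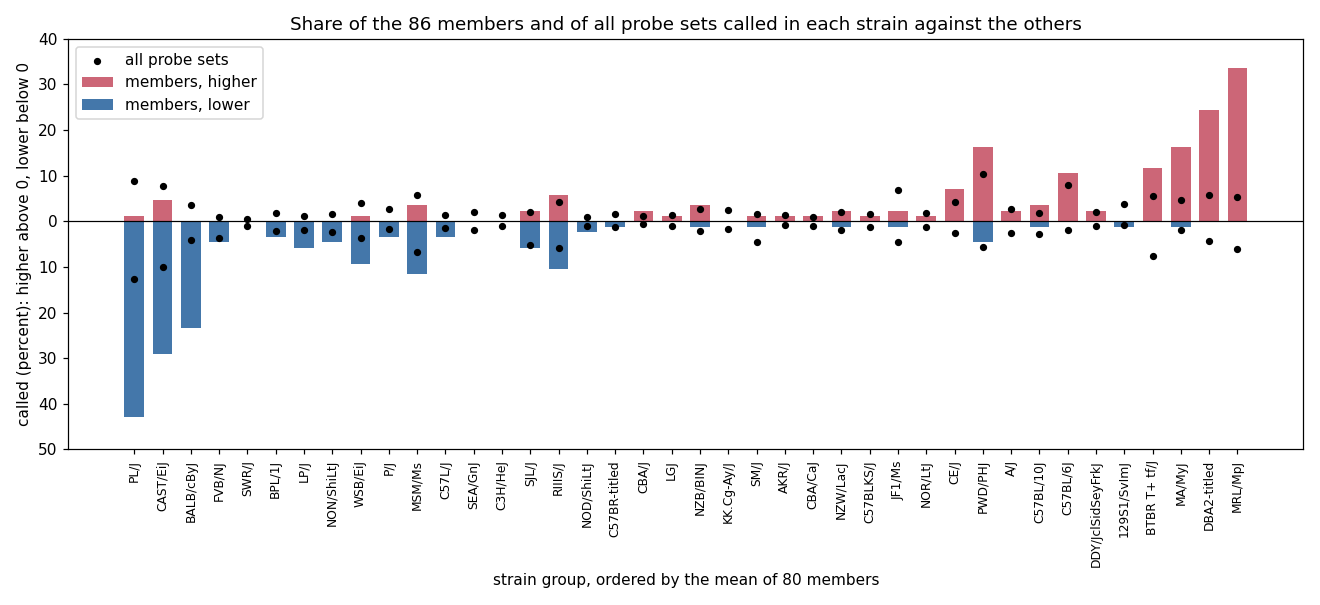
Percent of the 86 members called higher (red bars, above 0) or lower (blue bars, below 0) in each strain against the mean of the others, with the percent of all probe sets as black points, strains ordered by the mean of 80 members. Blue bars pass their points most in PL/J (43% against 12.7%), CAST/EiJ and BALB/cByJ, and red bars in MRL/MpJ (33.7% against 5.32%) and DBA2-titled.

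The members moved together to a large degree. Each array's mean over the 80 brighter members gave strain means from 9.17 (log2) in PL/J to 9.66 in MRL/MpJ, a 1.41-fold range. Without PL/J replicate 2, PL/J stood at 9.25, above CAST/EiJ (9.19) and BALB/cByJ (9.21), and the range was 1.39-fold. The SD of these strain means was 0.11 and the replicate SD 0.10, so that neighbours in the order did not differ beyond the spread between arrays. The intraclass correlation of the mean was 0.47. By complex, the range was 1.41-fold for complex I, 1.49 for complex II, 1.55 for complex III, 1.54 for complex IV and 1.45 for complex V.

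**Figure D4:**
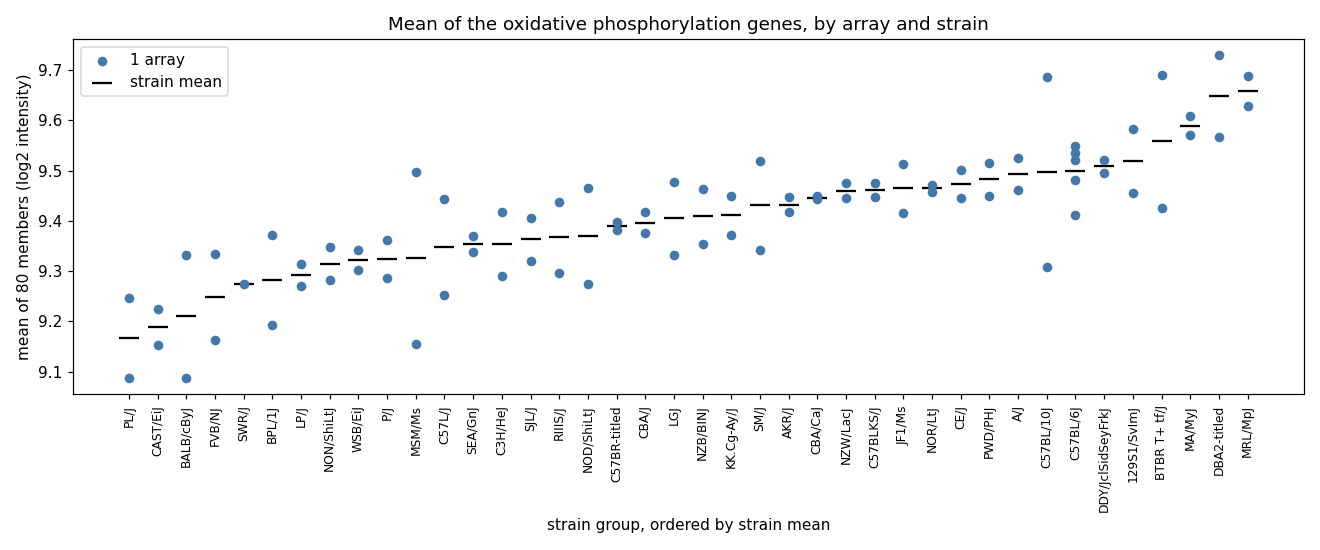
Mean log2 intensity of the 80 brighter members on each array (points) and by strain (bars), strains ordered by mean. PL/J is lowest at 9.17 and MRL/MpJ highest at 9.66, but without PL/J replicate 2, the array with raised B cell markers, CAST/EiJ is lowest at 9.19. The arrays of C57BL/10J, MSM/Ms and BTBR T+ tf/J lie far apart within their strain.

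Arrays of the same strain could differ in this mean as much as strains did. The C57BL/10J arrays differed by 0.38, with 70 of the 80 members on the same side, those of MSM/Ms by 0.34 (76 members), of BTBR T+ tf/J by 0.27 (70) and of BALB/cByJ by 0.25 (72). The median gap over the 38 strains with 2 arrays was 0.08. For C57L/J, with the next largest gap (0.19), 55 members lay on the same side. These strains were picked by the gap in the mean of the same members, so most members lying on 1 side follows in part from the choice.

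Correlation with the mean of the other members, over the 40 strain means, had a median of r = 0.62 for the 80 brighter members, against 0.08 for all 12423 brighter probe sets. It was above 0.5 for 51 members (63.7%), against 14.6% of probe sets. Atp5o, which links the stalk of the ATP synthase to its head, was highest (r = 0.89), with Ndufb5 (0.88) and Uqcr10 (0.87) next. Lowest were Cox6a2 (-0.53), Cox8c (-0.24) and Cox4i2 (-0.23), all forms from other tissues, then the subunit Ndufs1 (-0.12). Sdhd gave 0.35 and Cox5b 0.49. Over the 82 arrays, after each strain's mean was taken away, the median was r = 0.64, close to the value over strains. These values are descriptions, and arrays share their normalization and labelling. The mean of complex V (r = 0.97) and complex I (r = 0.96) followed the other complexes most closely over strains and that of complex II least (r = 0.63). These means held 17, 35 and 7 genes, and r was not matched for this number.

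Other genes of the mitochondrion and of energy metabolism were read in the same way. Their counts are to be read against the 77.1% of all brighter probe sets that passed. Of the assembly factors of the complexes, 37 of 42 passed the F-test (34 of 39 brighter ones), and their mean correlated with that of the members at r = 0.67 over strains. Lyrm7, an assembly factor of complex III, ran from 75.2 in A/J to 185.7 in MSM/Ms, and Cmc2, of complex IV, from 180.4 in CAST/EiJ to 598.5 in MRL/MpJ. Of the electron and nucleotide carriers and coenzyme Q genes, 15 of 24 passed (14 of 22 brighter ones, below the background, r = 0.65), among them Etfb, an electron transfer flavoprotein, from 410.1 in CAST/EiJ to 902.3 in JF1/Ms. Of the biogenesis regulators, 11 of 19 passed (11 of 18 brighter ones, below the background, r = 0.18), led by Myc and Tfb1m.

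Of these lists, those of ribosomal proteins gave the highest r. They were also the largest, with the assembly factors next at 39 brighter genes. The r values were not matched for list size. Mitochondrial ribosomal protein genes, 62 of 77 of which passed (61 of 76 brighter ones, near the background), had a mean that correlated with the members' at r = 0.90, and cytosolic ribosomal protein genes, 49 of 57 of which passed (47 of 54 brighter ones), at r = 0.78. The tricarboxylic acid cycle passed with 16 of 17 genes (r = 0.44) and glycolysis with 15 of 16 (r = 0.59). Within glycolysis, Aldoc ran from 87.9 in NZW/LacJ to 780.7 in CAST/EiJ, and Ldhb from 98.6 in SM/J to 406.6 in MSM/Ms. Both mitochondrially encoded subunits that were measured with a single symbol, listed as COX2 and ND3, passed (r = 0.22). ND3 was lowest in CAST/EiJ (1519) and highest in SJL/J (5870), and COX2 lay between 8192 and 11660.

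Last, JF1/Ms, MSM/Ms, PWD/PHJ and CAST/EiJ, which derive from subspecies other than M. m. domesticus, were set against the other 36 strains with the strain as the replicate. The mean of 9 myeloid markers was raised in 3 of them, against a median of 5.72 over arrays. It was 6.36 in CAST/EiJ, 6.27 and 6.34 in JF1/Ms and 6.15 and 6.32 in MSM/Ms, but 5.59 and 5.62 in PWD/PHJ. SM/J, among the other 36 strains, read 6.10 and 6.26. The mean of 2 CD8 T cell markers was 6.86 and 7.23 in PWD/PHJ and 7.08 and 7.19 in CAST/EiJ. The other 36 strains read at least 7.46, and MSM/Ms and JF1/Ms lay in their range. The part of these markers in the differences was not tested. Whether variants under the probes changed signals in these strains was not tested either. The comparison took the strains as independent, and relatedness among them was not modelled. Only 1 member was called higher, against 4.96% of all probe sets, and 3 were called lower, against 3.77%, shares at or below the background. The median difference of the 86 members was -0.04, with 38 above 0, and that of all probe sets 0.02. Quantile normalization gave 2 higher and 3 lower, and median centring 0 higher and 3 lower.

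Cox7a2 and Atp5h, the d subunit in the stalk of the ATP synthase, were the clearest of the 4. Strain means of Cox7a2 were 292.8 in CAST/EiJ, 309.4 in PWD/PHJ, 321.5 in MSM/Ms and 313.4 in JF1/Ms, against 277.5 to 674.9 in the others, a difference of -0.53 ± 0.14 (limma, adjusted p = 0.00934). The 4 lie close together at the low end, and C57BR-titled and C57L/J reach as low. Atp5h had means of 1441, 1831, 1420 and 1741 in the same order, against 1535 (PL/J) to 2462 in the others, so the groups overlap, a difference of -0.34 ± 0.09 (limma, adjusted p = 0.00655, but 0.0813 without MSM/Ms and 0.0563 without CAST/EiJ).

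Ndufa2 was the member called higher, with means of 661.1, 935.4, 861.8 and 821.0 in that order, a difference of 0.54 ± 0.17 (limma, adjusted p = 0.0345). Without PWD/PHJ, MSM/Ms or JF1/Ms the adjusted p was 0.144, 0.132 or 0.102, and after median centring it was 0.0681. Ndufs6, a zinc-binding complex I subunit, was called lower, at -0.31 ± 0.10 (limma, adjusted p = 0.0489), and the call was lost in 39 of the 86 settings that left out 1 array or strain. Of the other lists, Aldoc (1.25 ± 0.19, limma, adjusted p = 4.43e-06) and Rps19 (-1.12 ± 0.12, limma, adjusted p = 1.78e-09) differed more than any member.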

How the data were processed

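Gene expression was read on Affymetrix ST1.0 arrays. The deposited table gives a linear intensity for each probe set on each array, which the authors had already normalized. The tools were Affymetrix Power Tools and RMA, per the submitters' processing notes, and their versions, the probe annotation and the genome build are not given in the sources used here. No column of the table was left unmapped (0). Symbols came from the platform annotation: 21425 probe sets had 1 symbol, 1399 several and 2098 none. A total of 6 probe sets that match the member names carry several symbols (Cox7c, Ndufb4 and Ndufs5 among them) and were left out.

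The log2 of each intensity was used as it stood, without another normalization or a filter. limma 3.58.1 in R 4.3.3 fitted 1 coefficient per strain group to all probe sets on 82 arrays (lmFit, eBayes, 42 residual and 8.09 prior degrees of freedom). The moderated F-test served for variation between strains, and contrasts set each strain against the mean of the other 39. The non-domesticus strains were tested on strain means, with each strain taken as independent of the others and no term for relatedness. Tests were two-sided, and the Benjamini-Hochberg adjustment ran over all 24922 probe sets within each contrast, at a threshold of 0.05. Nothing in the labels, beyond the series' word for biological replicates, shows that a strain's arrays came from separate pools of mice. The p-values therefore measure the spread between these arrays, and the small number of arrays per strain limits the precision.

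The text names the 12 members past the F-test whose strain means had the largest SD, the 4 with the smallest SD among members brighter than the members' median, all non-domesticus calls, the 25 largest strain and member pairs, members whose probe sets disagree, and up to 4 genes per pathway list. Any gene named outside these rules was picked with its values in view. The members, lists and tests were chosen with earlier results of these data known. The alternatives were quantile normalization, median centring, leaving out dim probe sets, another prior, an offset of 32 before log2, 1 probe set per gene, the second probe set of a gene, the replicate number as a block, a B cell covariate, and leaving out arrays and strains. The F-test, tested on simulated data with 200 of 24922 probe sets shifted by 1 (log2) in some strains, recovered 81% of them. The simulated noise was independent between probe sets, and far fewer were shifted than the 47.6% that passed in these data. The 81% is therefore not the power of the F-test here.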

Additional observations from a re-analysis of the deposited data

Results flagged for a closer look

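C57BL/6J is the only strain with more than 2 arrays, so single arrays could be set against their group there alone. In 3 of 31 results examined, 1 of its 5 arrays lay far from the other 4, with a gap to the nearest array, as a share of the whole range on the log2 scale, above Dixon's critical value of 0.71 for 5 samples. Chance alone passes that value in about 1 in 20 groups. For Uqcr10 the share was 0.904: replicate 1 read 492.7, and the others 386.0, 395.2, 390.3 and 388.5. For Atp5a1 it was 0.891: replicate 4 read 1606, and the others 2098, 2084, 2037 and 2067. For Ndufc2 it was 0.885: replicate 4 again was low, at 1621, and the others read 1809, 1835, 1812 and 1822. The mean of the 80 brighter members was also lowest on replicate 4 of this strain, at 9.41 (log2), and highest on replicate 1, at 9.55.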

How the results depend on the processing

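The number of members past the F-test was 69, and 57 to 71 under the other settings, or 64 to 75 without single arrays. The number of called strain and member pairs (291) was 219 to 360, and 261 to 332 without single arrays. Counts that moved by over 1.5 times were, after quantile normalization, 1 for MA/MyJ, 2 for C57BL/6J and 23 for PL/J (lower). After median centring they were 3 for BTBR T+ tf/J, 1 for C57BL/6J, 2 for CAST/EiJ (higher), 9 for BALB/cByJ and 3 for WSB/EiJ. With the dimmest 40% left out they were 23 for MA/MyJ, 14 for C57BL/6J and 2 for CAST/EiJ (higher). For PL/J the count was 5 with the B cell covariate and 3 without PL/J replicate 2 and A/J replicate 2. With arrays in place of strains as replicates, 17 members were called in the non-domesticus comparison. The cause of these moves was not tested. Where a strain keeps 1 array, that array is assumed to vary like the other groups. With single arrays left out, the counts ranged over 0 to 35 for MRL/MpJ, 2 to 25 for DBA2-titled, 0 to 18 for MA/MyJ, 2 to 15 for PWD/PHJ, 0 to 18 for BTBR T+ tf/J, 3 to 15 for C57BL/6J and 0 to 4 for CAST/EiJ (higher). For members called lower they ranged over 3 to 38 for PL/J, 9 to 27 for CAST/EiJ, 3 to 25 for BALB/cByJ, 0 to 13 for MSM/Ms, 0 to 12 for RIIIS/J and 0 to 10 for WSB/EiJ, and for the non-domesticus comparison over 2 to 4. No named result turned its direction, and 390 of 409 values of named genes kept their side of the threshold under 11 other settings and 3535 of 3706 when 1 array or strain was left out.

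The replicate numbers of the titles share only a number: deviations of same-numbered arrays correlated at a median of r = 0 over 630 pairs of strains (-0.63 to 0.57), and 31.6% were above 0.1. With the replicate number as a block, 69 members passed the F-test, 287 pairs and 4 non-domesticus members were called, and the C57BL/6J count was 1 in place of 9.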
